A study of Arabidopsis thaliana with 18 samples.

Results

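The transcripts described here had higher values under hypoxia than in air in wild-type Arabidopsis seedlings, and also higher values in prt6-1 and in ate1 ate2 seedlings than in wild type in air. They are 71 of the 22746 probe sets of the ATH1 array, an Affymetrix chip on which each transcript is read by a set of short probes. They were selected on 3 differences between group means on the log2 scale. Hypoxia minus air in Col-0 had to be at least 0.8, and prt6-1 minus Col-0 and ate1 ate2 minus Col-0 in air each had to be above 0.5. In all, 89 probe sets passed these thresholds, and 18 of them, which include CML38 and AT3G10040, were set aside by symbol or locus. Because these 3 differences chose the members, they are given as a description and carry no test. The platform annotation gives exactly 1 gene for 22 members, several for 1 and none for 48, and only the 22 are named.

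The N-end rule pathway ties the half-life of a protein to its N-terminal residue, and its arginine branch acts on ends that carry arginine. ATE1 and ATE2 are arginyl transferases that add arginine to certain N termini that lack it. PRT6 is the E3 ubiquitin ligase that recognises the arginylated end. In Arabidopsis the best known substrates are the group VII ethylene response factors, transcription factors that are degraded in the presence of oxygen and that activate fermentation and other low-oxygen genes when oxygen falls or the pathway is lost. Little is textbook knowledge for many of the members below, several of which are known only by a locus code.

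The study measured 18 arrays of Arabidopsis thaliana. Whole ate1 ate2, prt6-1 and Col-0 seedlings, 7 d old, spent 2 h either in a sealed chamber flushed with humidified argon (99.995% pure), called hypoxia here, or in air under the same dim light, with 2 arrays for each genotype and condition. Seeds of prt6-1 and Col-0 were after-ripened, kept cold for 48 h and imbibed for 24 h in constant light at 22 °C, with 3 arrays each. No ate1 ate2 seeds were analysed here. The seedlings had been given 3 d of cold and grown with 1% sucrose at 23 °C in 16 h of light per day. The medium of the seeds was at 0.5 strength. Col-0 is the wild type. The prt6-1 line is mutant for PRT6 and ate1 ate2 for both transferase genes, and each mutation was represented by 1 line, so an effect of the mutation and of the line cannot be told apart. The series' design text describes replicates as independent biological experiments.

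Array medians lay between 6.70 and 6.88 log2 units, and arrays of 1 seedling group correlated at r = 0.995 to 0.997 across probe sets. Col-0 seed replicate 1 stood apart, with a mean r of 0.986 to the other Col-0 seed arrays, against 0.990 to 0.991 for replicates 2 and 3. No probe set could be assigned to PRT6, ATE1 or ATE2 through the annotation used, so the mutated genes were not checked. The tissue labels were set against marker genes. Here and below, a listed gene counts as measured only where a probe set is annotated to that gene alone. Other listed genes may be read by probe sets without a single gene. RCA, which encodes Rubisco activase and is the 1 of 22 photosynthesis markers measured, lay between 14.32 and 14.39 in all seedling arrays. Of 15 seed storage and oil body markers 3 were measured, and their mean per array was 7.60 to 8.14 in prt6-1 seeds and 7.11 to 8.11 in Col-0 seeds, against 4.30 to 4.66 in seedlings, a contrast that depends on whether both tissues were normalized in a single run, which the sources do not state. Whole seedlings and whole seeds are mixtures of cell types, so fewer cells of a type and less RNA per cell cannot be told apart.

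Across the 71 members, hypoxia minus air in Col-0 had a median of 1.39 log2 units and a range of 0.81 to 5.87. In air, ate1 ate2 minus Col-0 had a median of 1.20 (0.51 to 4.03) and prt6-1 minus Col-0 a median of 1.22 (0.53 to 3.65). For scale, limma called 1.64% of all probe sets higher under hypoxia in Col-0, 2.09% higher in ate1 ate2 and 2.18% higher in prt6-1 in air. In 36 members both mutant differences were at least 1, and in 20 members the Col-0 difference was at least 2. The ate1 ate2 air mean was above the prt6-1 air mean in 48 of 71 members, with a median difference of 0.09. The plot of the 3 choosing values shows a dense corner near the thresholds and a thin scatter of large values, held by members with no single gene and by probe sets that the rule left out.

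**Figure D1:**
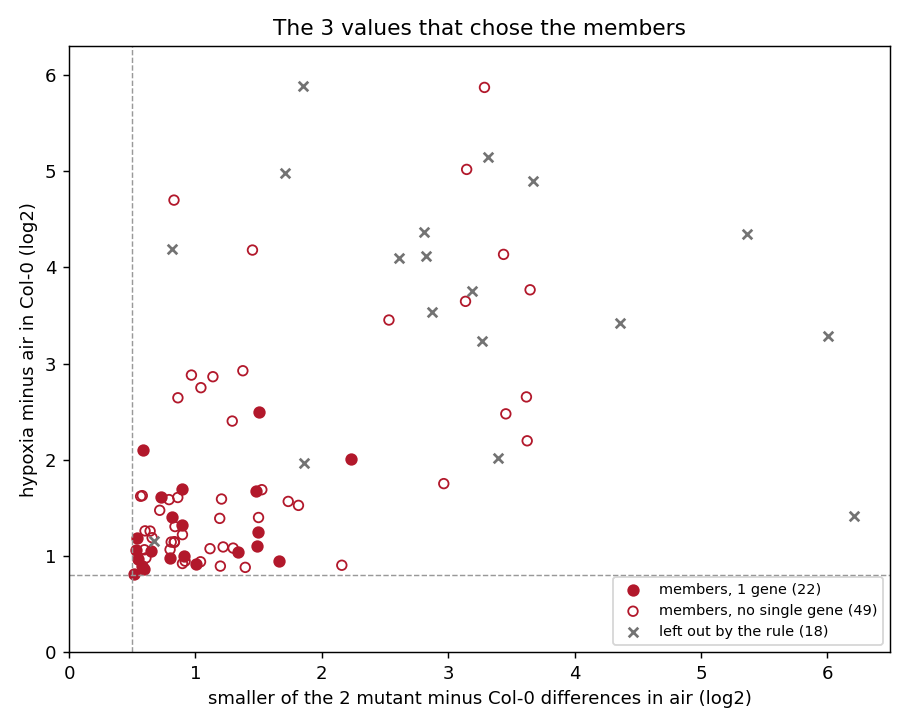
Each point is 1 probe set past the 3 thresholds. The x axis is the smaller of the ate1 ate2 and prt6-1 differences from Col-0 in air and the y axis is hypoxia minus air in Col-0, both in log2 units. Filled red points are the 22 members with 1 gene, open red points the 49 others and grey crosses the 18 left out. Dashed lines mark the thresholds of 0.5 and 0.8, and the largest Col-0 difference among members is 5.87.

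Among genes with a name, members near the edges of the rule shade into other genes. Just inside the hypoxia threshold were AT1G23850 at 0.81, AT2G25735 at 0.86 and AT2G46550 at 0.90, and just outside it were TIL, a temperature-induced lipocalin gene, at 0.798, AT4G39720 at 0.78 and AT1G16310 at 0.75. For prt6-1 minus Col-0, AT3G28480 (0.53), AT1G07870 (0.54) and AT5G54130 (0.55) were just inside, while AT2G31390 (0.49), AT1G04770 (0.48) and AT1G66880 (0.44) were just outside. For ate1 ate2 minus Col-0, AT1G23850 (0.51), AT1G07870 (0.54) and AT2G46550 (0.58) were just inside. AT2G32020 (0.45), AT3G12150 (0.39) and AT5G60680 (0.29) were the nearest named genes outside.

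Genes of the FCS-like zinc finger family, whose proteins bind the energy-sensing kinase SnRK1, gave 3 of the 22 named members. AT4G17670 measured 8.97 and 8.95 in ate1 ate2, 8.82 and 8.95 in prt6-1 and 8.86 and 8.57 in Col-0 under hypoxia. Its air values were 7.92 and 8.18 in ate1 ate2 and 7.62 and 7.81 in prt6-1, against 6.04 and 6.39 in Col-0. The mutants in air thus sat between both Col-0 conditions, and under hypoxia the ate1 ate2 arrays were slightly above those of Col-0 while the prt6-1 arrays overlapped with them. Hypoxia minus air in Col-0 was 2.50, which is 5.65-fold and the largest among named members.

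AT1G74940, of the same family, measured 10.38 and 10.30 in ate1 ate2, 10.42 and 10.39 in prt6-1 and 10.16 and 10.23 in Col-0 under hypoxia. Its air values were 9.39 and 9.65 in ate1 ate2 and 9.43 and 9.36 in prt6-1, against 8.35 and 8.65 in Col-0. Each mutant's air arrays were above those of Col-0 and below every hypoxia array. The other family member, AT5G47060, measured 9.82 and 9.88 in ate1 ate2, 9.96 and 9.68 in prt6-1 and 9.77 and 9.64 in Col-0 under hypoxia. In air its values were 8.95 and 9.25 in ate1 ate2 and 8.55 and 9.09 in prt6-1, against 8.07 and 8.12 in Col-0. Its prt6-1 air arrays had an SD of 0.38, the widest of its 6 seedling groups.

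Ubiquitin ligases of the ATL RING family gave another pair of members, and in these the air level of the mutants was above the hypoxia level of Col-0. AT2G47560 measured 8.26 and 8.18 in ate1 ate2, 8.18 and 7.99 in prt6-1 and 6.87 and 7.38 in Col-0 under hypoxia. Air arrays measured 8.06 and 8.40 in ate1 ate2 and 7.64 and 8.03 in prt6-1, against 6.14 and 6.21 in Col-0. All mutant arrays, in either condition, were above all Col-0 arrays, and the mutants' hypoxia and air arrays overlapped. The air differences from Col-0 were 2.06 in ate1 ate2 and 1.66 in prt6-1. AT4G40070 had the same order, with differences in air of 1.34 in ate1 ate2 and 1.34 in prt6-1 and a Col-0 hypoxia difference of 1.04.

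AT4G14980, which encodes a cysteine- and histidine-rich C1-domain protein, had the largest mutant differences in air among named members, 2.56 in ate1 ate2 (5.90-fold) and 2.23 in prt6-1 (4.68-fold). It measured 7.53 and 7.50 in ate1 ate2, 7.42 and 7.26 in prt6-1 and 6.58 and 6.46 in Col-0 under hypoxia. Air arrays measured 7.00 and 7.16 in ate1 ate2 and 6.69 and 6.80 in prt6-1, against 4.64 and 4.40 in Col-0. Here too the mutants in air were above Col-0 under hypoxia. AT1G19540, an isoflavone reductase-like gene, measured 8.45 and 8.33 in ate1 ate2, 8.70 and 8.47 in prt6-1 and 7.52 and 7.92 in Col-0 under hypoxia. Its air values were 7.87 and 8.06 in ate1 ate2 and 8.06 and 8.16 in prt6-1, against 6.28 and 6.66 in Col-0. The ate1 ate2 air arrays of AT1G19540 overlapped with the Col-0 hypoxia arrays and the prt6-1 air arrays were above them.

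ARL, the ARGOS-like gene that promotes cell expansion, is the 1 named member with a symbol of its own. It measured 9.95 and 9.98 in ate1 ate2, 10.23 and 10.11 in prt6-1 and 9.41 and 9.28 in Col-0 under hypoxia. In air it measured 9.02 and 9.28 in ate1 ate2 and 9.01 and 9.28 in prt6-1, against 7.44 and 7.89 in Col-0. The mutants' air arrays reached the lower edge of the Col-0 hypoxia arrays, and their hypoxia arrays were above them. AT1G03610, for which no role is given here, measured under hypoxia 10.60 and 10.78 in ate1 ate2, 11.31 and 11.22 in prt6-1 and 10.69 and 10.52 in Col-0. In air it measured 9.27 and 8.93 in ate1 ate2 and 9.25 and 9.37 in prt6-1, against 8.38 and 8.64 in Col-0. Its mutant differences in air were small, 0.59 in ate1 ate2 and 0.80 in prt6-1, beside a Col-0 hypoxia difference of 2.10.

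The other named members were of mixed function. Signalling genes were AT1G26270, of the phosphatidylinositol 3- and 4-kinase family, with a Col-0 hypoxia difference of 1.32, and AT1G07870, a receptor-like cytoplasmic kinase gene, with 1.19. AT3G60490, an AP2/ERF transcription factor gene of the DREB subgroup, had 0.92, and differed from Col-0 in air by 1.01 in ate1 ate2 and 1.18 in prt6-1. AT3G28480, of the prolyl 4-hydroxylase family of oxygen-dependent enzymes, had 1.07. AT5G35940, a jacalin-related lectin gene, had 1.40, with air differences of 0.82 in ate1 ate2 and 1.62 in prt6-1. AT2G04050, a MATE-type efflux carrier gene with close neighbours in sequence that its probes may also read, had 1.00, and AT3G13650, a dirigent-like gene, had 0.98. AT5G54130, of a calcium-binding endonuclease/exonuclease/phosphatase family, had 0.97. AT5G10210 (1.11), AT2G47720 (1.05), AT2G46550 (0.90), AT2G25735 (0.86) and AT1G23850 (0.81) are given without a role.

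**Figure D2:**
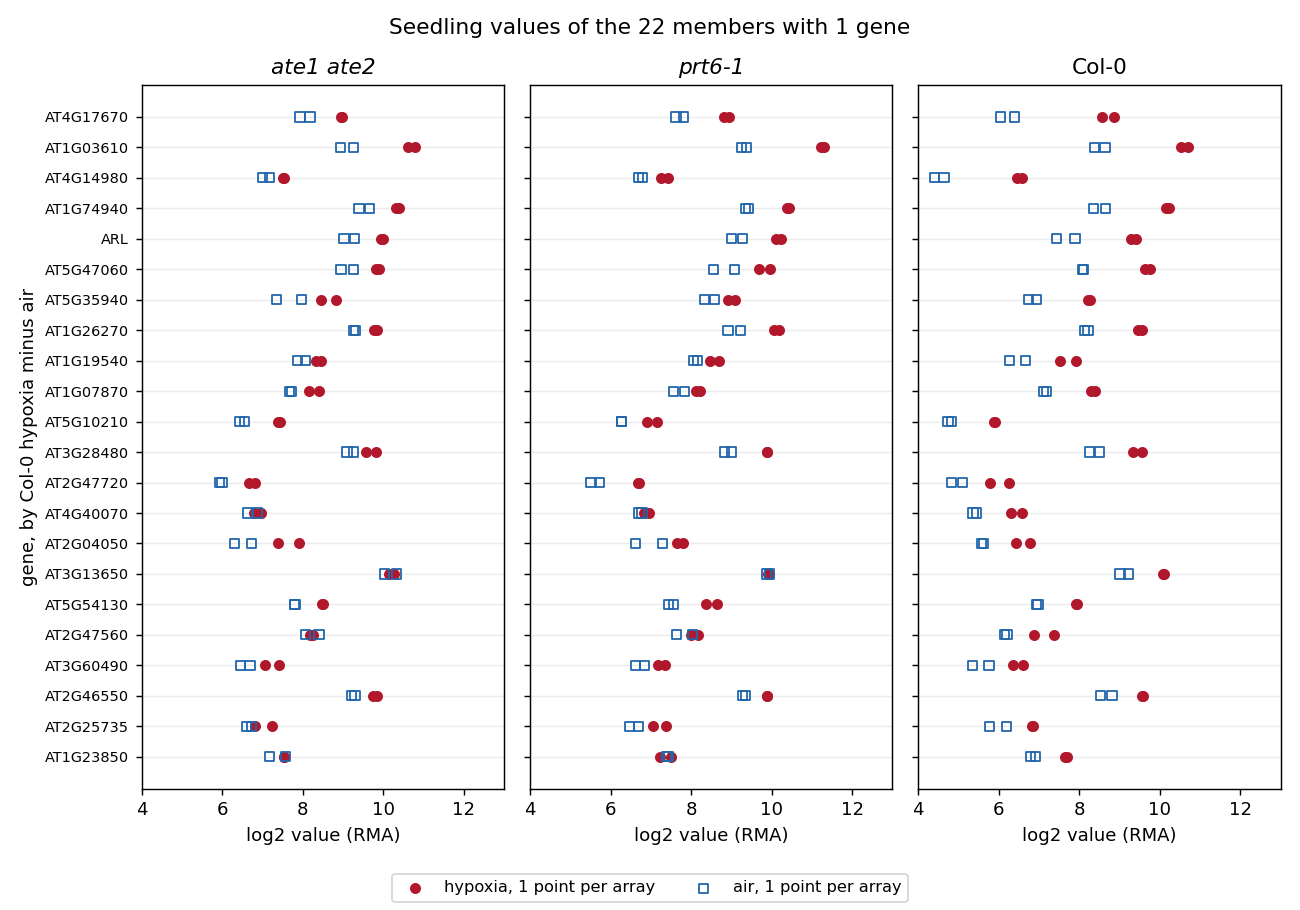
Deposited log2 values of the 22 members with 1 gene in seedlings, by genotype, ordered from the largest Col-0 hypoxia difference (AT4G17670, 2.50) to the smallest (AT1G23850, 0.81). Filled circles are hypoxia arrays and open squares air arrays, 2 of each. In Col-0 every gene has both hypoxia points to the right of both air points, while AT2G47560, AT3G13650 and AT1G23850 overlap in both mutants and AT4G40070 in ate1 ate2.

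How the members responded to hypoxia in the mutants shares the mutant air arrays with the choice of members, so it is described without a test. Both hypoxia arrays lay above both air arrays in 60 of 71 members in ate1 ate2 (20.7% of all probe sets) and in 64 of 71 in prt6-1 (19.7% of all probe sets). Both lay below in 2 members in ate1 ate2 (24.6% of all) and in 2 in prt6-1 (26.4% of all). The median hypoxia difference was 0.66 in ate1 ate2 (range -0.30 to 3.23) and 0.81 in prt6-1 (-0.20 to 4.33), against the 1.39 in Col-0 that the rule had bounded from below. Over all probe sets the medians were -0.02 in ate1 ate2, -0.01 in prt6-1 and -0.01 in Col-0. In 65 of 71 members the difference was smaller in both mutants than in Col-0. The choice of members favours this order, as it asks for a large Col-0 difference and high mutant values in air. In 52 members the difference was larger in prt6-1 than in ate1 ate2. The shares of all probe sets for these 2 counts were not worked out.

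The named members ran from a full response to none. AT1G03610 had the largest mutant hypoxia differences, 1.60 in ate1 ate2 and 1.95 in prt6-1, against 2.10 in Col-0. In prt6-1 it was followed by AT4G17670 at 1.17 and AT2G47720 at 1.07, and in ate1 ate2 by AT2G04050 at 1.13 and AT5G35940 at 0.98. AT2G47720 and AT5G54130 in prt6-1 (1.07 and 1.00) and AT2G04050 in ate1 ate2 (1.13) matched or passed their Col-0 differences of 1.05, 0.97 and 1.00. At the other end, 8 members had a difference under 0.25 in both mutants. AT3G13650 had 0.03 in ate1 ate2 and 0.02 in prt6-1, AT4G40070 0.14 and 0.15 in the same order, and AT1G23850 0.17 and -0.06. AT2G47560 had -0.01 in ate1 ate2 and 0.25 in prt6-1.

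**Figure D3:**
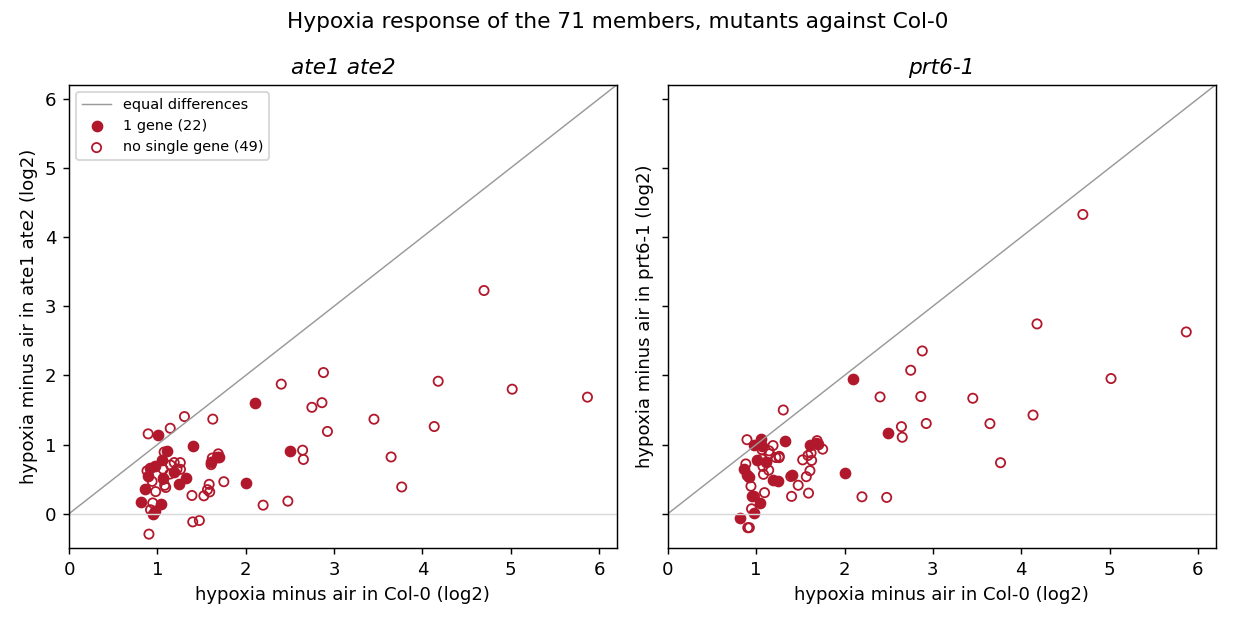
Hypoxia minus air in ate1 ate2 (left) and prt6-1 (right) against hypoxia minus air in Col-0, in log2 units, for the 71 members. Filled points have 1 gene, open points do not, and the grey diagonal marks equal differences. Nearly all points lie below the diagonal (65 of 71 in both mutants), with the widest gaps at large Col-0 differences. The choice of members favours this side of the diagonal.

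The level reached was compared between genotypes in the same descriptive way, since the Col-0 hypoxia arrays also chose the members. All 4 mutant air arrays were above both Col-0 hypoxia arrays in 13 of 71 members (13.4% of all probe sets) and below them in 33 (15.5% of all). The 13 included AT4G14980, AT2G47560, AT5G10210 and AT4G40070. Under hypoxia, all 4 mutant arrays were above both Col-0 arrays in 45 members (10.1% of all) and below them in 4 (15.6% of all), of which AT1G23850 was the 1 named. The median difference from Col-0 under hypoxia was 0.32 in ate1 ate2 (-0.61 to 2.35) and 0.50 in prt6-1 (-0.53 to 2.15), and over all probe sets both medians were -0.02. AT5G10210 was highest above Col-0 under hypoxia among named members, by 1.51 in ate1 ate2 and 1.13 in prt6-1.

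Both mutants' hypoxia arrays were outside the choice of members, so the difference between the mutants there was tested with limma. No member passed, 0 higher (0.0923% of all probe sets) and 0 lower (0.0703% of all) in ate1 ate2 than in prt6-1. The lowest adjusted p among the members was 0.0928, for 258856_at at -0.52 (SE 0.11). Both ate1 ate2 arrays lay above both prt6-1 arrays in 15 members (22.6% of all) and below them in 27 (18.3% of all). Over the members the difference had a median of -0.05 and a range of -0.57 to 0.40. The largest among named members was that of AT1G03610 at -0.57 (SE 0.13, adjusted p = 0.128), whose ate1 ate2 arrays at 10.60 and 10.78 were below the prt6-1 arrays at 11.31 and 11.22. AT1G03610 passed with an intensity trend (adjusted p = 0.0271) or with array weights (adjusted p = 0.0487). AT5G10210 was at 0.38 (SE 0.11, adjusted p = 0.238) and AT1G26270 at -0.33 (SE 0.11, adjusted p = 0.389). Of 12 root hair and root markers 4 were measured and 1, AT3G49960, was higher in ate1 ate2 than in prt6-1 under hypoxia (0.67, SE 0.12, adjusted p = 0.0402). Their mean per array was 7.33 to 7.43 in ate1 ate2 and 6.91 to 6.95 in prt6-1, and their part in the result was not tested.

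Seeds were not used to choose the members, and there the genotype difference was tested with limma on the 6 seed arrays. In imbibed seeds 34 of 71 members were higher in prt6-1 than in Col-0 (2.19% of all probe sets) and 2 were lower (1.91% of all). The median difference over the members was 0.52 log2 units, with a range of -2.14 to 3.35, and 50 of 71 were above 0. Over all probe sets the median was -0.02. All 3 prt6-1 arrays lay above all 3 Col-0 arrays in 40 members (12.3% of all) and below them in 4 (13.5% of all). Without Col-0 seed replicate 1, the array that stood apart, 35 members were higher and 4 lower. Of the 18 probe sets set aside by the rule, 15 were higher and 1 was lower. Named members gave 11 of the 34 higher ones and neither of the lower ones.

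AT2G47560, the ATL ligase gene, had the largest seed difference among named members. It measured 8.88, 8.86 and 9.04 in prt6-1 seeds, against 6.40, 5.65 and 6.35 in Col-0 seeds, a difference of 2.79 (SE 0.19, adjusted p = 0.000241), or 6.94-fold. AT2G47720 measured 6.78, 6.81 and 6.76 in prt6-1 seeds and 4.52, 4.39 and 4.98 in Col-0 seeds, a difference of 2.16 (SE 0.15, adjusted p = 0.000274). In both genes the gap between genotypes was several times the spread of the arrays. AT2G46550 measured 10.01, 10.01 and 9.73 in prt6-1 seeds and 8.12, 8.34 and 8.35 in Col-0 seeds, which is 3.14-fold (difference 1.65, SE 0.12, adjusted p = 0.000344). For AT2G46550 and AT2G47720 the seed difference was larger than the prt6-1 difference in seedlings in air (0.65 in each). Among called named members this also held for AT2G47560 (2.79 against 1.66), AT1G03610, AT1G74940, AT5G47060 and AT1G26270. The seed difference was the smaller one for AT1G19540, AT4G17670, AT4G14980 and AT3G28480. This contrast between tissues was not tested.

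The 3 zinc finger genes all rose in prt6-1 seeds. AT1G74940 measured 9.41, 9.47 and 9.51 in prt6-1 seeds and 8.22, 8.43 and 8.56 in Col-0 seeds (difference 1.06, SE 0.12, adjusted p = 0.0023). AT5G47060 measured 10.75, 10.88 and 10.81 in prt6-1 seeds and 9.78, 9.97 and 9.77 in Col-0 seeds (difference 0.97, SE 0.11, adjusted p = 0.00209). AT4G17670 measured 9.20, 8.90 and 8.98 in prt6-1 seeds and 8.51, 8.04 and 7.86 in Col-0 seeds (difference 0.89, SE 0.17, adjusted p = 0.0287). In each of the 3 genes every prt6-1 array was above every Col-0 array. The AT4G17670 call was lost when any seed array other than Col-0 replicate 1 was left out, with differences of 0.75 to 0.95 and adjusted p = 0.0738 to 0.112.

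Another 5 named members rose with separated arrays. AT1G19540 measured 9.10, 9.22 and 9.26 in prt6-1 seeds and 8.16, 7.92 and 7.60 in Col-0 seeds (difference 1.30, SE 0.15, adjusted p = 0.00263). AT1G03610 measured 9.82, 9.84 and 9.67 in prt6-1 seeds and 8.35, 8.52 and 8.73 in Col-0 seeds (difference 1.24, SE 0.13, adjusted p = 0.00142). AT1G26270, the lipid kinase gene, measured 11.31, 11.07 and 11.26 in prt6-1 seeds and 10.28, 10.31 and 10.18 in Col-0 seeds (difference 0.96, SE 0.11, adjusted p = 0.00263). AT4G14980 measured 7.77, 7.79 and 7.89 in prt6-1 seeds and 7.11, 7.13 and 6.95 in Col-0 seeds (difference 0.76, SE 0.11, adjusted p = 0.00728). AT3G28480 measured 8.85, 8.93 and 8.96 in prt6-1 seeds and 8.38, 8.43 and 8.55 in Col-0 seeds (difference 0.46, SE 0.10, adjusted p = 0.0472). The AT3G28480 call stood at the threshold and was lost when any 1 of the 6 seed arrays was left out (differences 0.42 to 0.51, adjusted p = 0.0594 to 0.153).

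The 11 named members that did not pass in seeds had differences of -0.30 to 0.56. For AT5G10210 (0.56, adjusted p = 0.12), AT5G54130 (0.56, adjusted p = 0.0629) and AT1G07870 (0.52, adjusted p = 0.0866) all prt6-1 arrays were nevertheless above all Col-0 arrays, and each passed under at least 1 alternative setting. AT1G07870 passed without Col-0 replicate 1 (0.61, adjusted p = 0.0432). ARL measured 9.49, 9.72 and 9.82 in prt6-1 seeds and 9.05, 9.51 and 9.38 in Col-0 seeds, and its arrays overlapped (difference 0.37, adjusted p = 0.221). AT3G60490 was at 0.42, and at 0.65 without Col-0 replicate 1 (adjusted p = 0.046) or 0.21 without Col-0 replicate 2. AT3G13650 was at 0.36, and at 0.62 without prt6-1 replicate 2 or 0.18 without prt6-1 replicate 3. AT4G40070 was at 0.01. AT5G35940 (-0.18), AT1G23850 (-0.20), AT2G04050 (-0.21) and AT2G25735 (-0.30) were below 0. The pair of ATL ligase genes therefore differed in seeds in their calls, AT2G47560 passing and AT4G40070 not, and the difference between the genes was not tested.

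**Figure D4:**
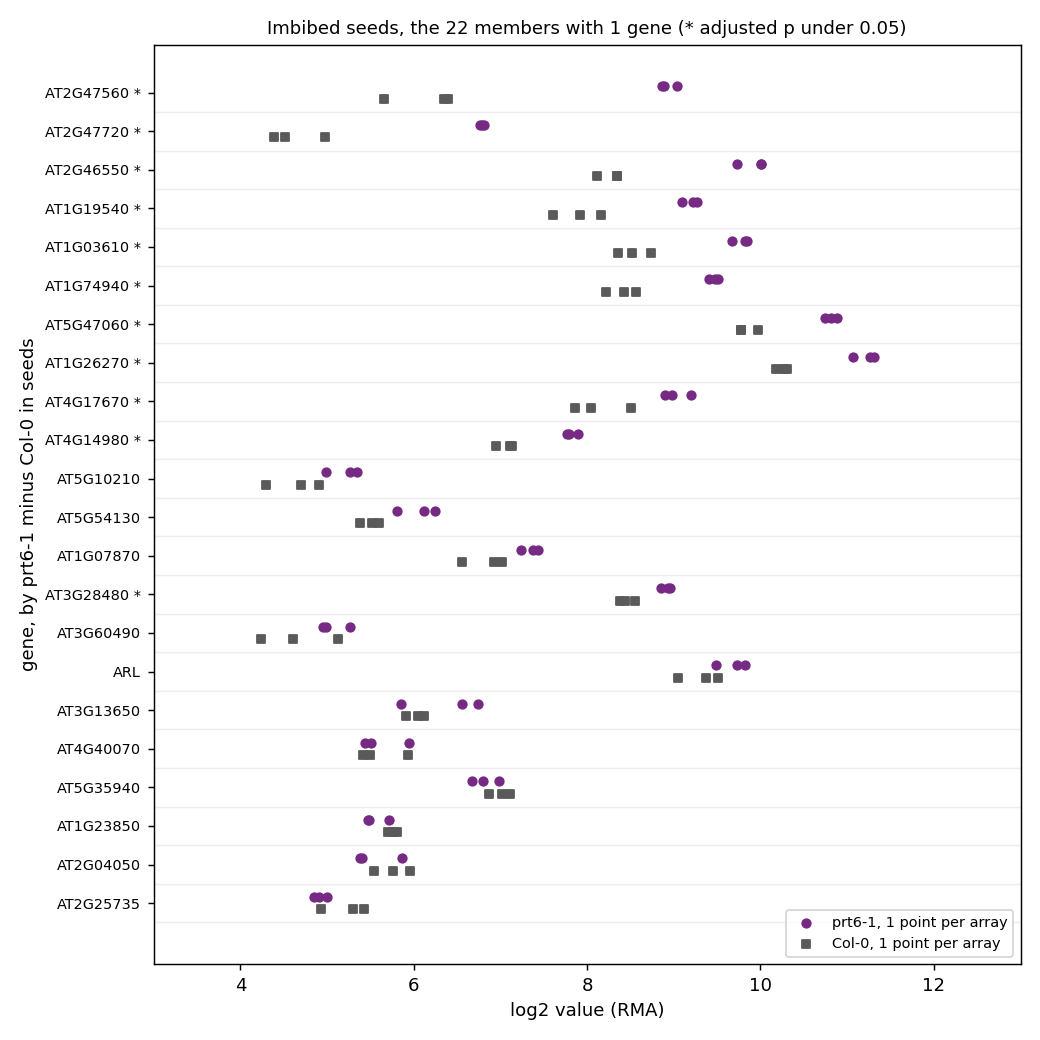
Deposited log2 values of the 22 members with 1 gene in imbibed seeds, 3 arrays each of prt6-1 (purple circles) and Col-0 (grey squares, drawn just below), ordered by prt6-1 minus Col-0 from AT2G47560 at 2.79 to AT2G25735 at -0.30. A star marks an adjusted p under 0.05 by limma. All circles lie to the right of all squares in 14 of the 22 genes (12.3% of all probe sets). These are the 11 starred genes and AT5G10210, AT5G54130 and AT1G07870, which carry no star.

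Storage and late embryogenesis markers overlapped between the genotypes in seeds. Late embryogenesis markers (10 of 16 measured) had a mean per array of 9.94 to 10.36 in prt6-1 seeds and 9.86 to 11.18 in Col-0 seeds, and none of the 10 was called, nor any of the 3 storage markers. RCA measured 10.41 to 10.61 in prt6-1 seeds and 9.79 to 10.40 in Col-0 seeds, without overlap and without passing the test, and its part in the seed differences was not tested. In seedlings in air the late embryogenesis markers did move with genotype, at 5.06 to 5.83 in ate1 ate2 and 4.89 to 4.97 in prt6-1, against 6.05 to 6.17 in Col-0, with 2 of 10 lower in ate1 ate2 (1.62% of all probe sets) and 6 of 10 lower in prt6-1 (1.97% of all) by limma. Root markers in air were at 8.20 to 8.40 in ate1 ate2 and 7.82 to 7.86 in prt6-1, against 7.51 to 7.67 in Col-0. Their part in the air differences of the members was not tested.

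The 49 members without a single gene held the largest values. Probe set 253416_at had the largest Col-0 hypoxia difference, 5.87 or 58.4-fold. It measured 12.14 and 12.01 in ate1 ate2, 12.33 and 12.22 in prt6-1 and 12.23 and 12.23 in Col-0 under hypoxia. In air it measured 10.33 and 10.45 in ate1 ate2 and 9.82 and 9.48 in prt6-1, against 6.41 and 6.31 in Col-0, so that the mutants were far above Col-0 in air and close to it under hypoxia. The next largest were 258487_at (5.02), 247431_at (4.70), 267024_s_at (4.18) and 249384_at (4.13). Probe set 247431_at had air differences of 1.52 in ate1 ate2 and 0.83 in prt6-1, and the largest hypoxia differences of any member in the mutants, 3.23 in ate1 ate2 and 4.33 in prt6-1.

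An opposite pattern was seen in 263096_at, which was near its highest level in the mutants whatever the condition. It measured 12.95 and 13.01 in ate1 ate2, 12.97 and 13.02 in prt6-1 and 11.77 and 11.79 in Col-0 under hypoxia. In air it measured 12.69 and 12.90 in ate1 ate2 and 12.74 and 12.78 in prt6-1, against 9.38 and 9.22 in Col-0. Probe set 265948_at behaved alike, with air differences of 3.99 in ate1 ate2 and 3.62 in prt6-1 and hypoxia differences of 0.12 in ate1 ate2 and 0.24 in prt6-1. In 256243_at the hypoxia difference was -0.30 in ate1 ate2 and -0.20 in prt6-1, against 0.90 in Col-0.

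In seeds 23 of these 49 were higher in prt6-1 (2.19% of all probe sets). Of the 49, 32 were above 0, beside a median of -0.02 over all probe sets. The differences of the 23 ranged from 0.58 to 3.35. Probe set 260869_at measured 12.97, 13.12 and 13.12 in prt6-1 seeds and 9.15, 10.05 and 9.99 in Col-0 seeds, the largest seed difference of any member (3.35, SE 0.22, adjusted p = 0.000186, 10.2-fold). Probe set 264953_at measured 12.93, 12.93 and 13.04 in prt6-1 seeds and 10.37, 10.16 and 9.80 in Col-0 seeds (difference 2.85, SE 0.15, adjusted p = 6.59e-05). The 2 members lower in prt6-1 seeds were 253046_at (-2.14, SE 0.20, adjusted p = 0.001) and 258856_at (-0.70, SE 0.11, adjusted p = 0.0135).

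The members were set beside lists of related genes. Of 48 core hypoxia-responsive genes 24 were measured under their name, and 20 of these passed the 3 thresholds. The core genes not measured under a name may be read by probe sets without a single gene. Among the named members were 4 of the 20: AT4G17670, AT1G74940, AT5G47060 and AT1G26270. Members without a single gene could not be matched to any list, so the members may hold further core genes. The 4 measured core genes not past the thresholds were PDC2, a pyruvate decarboxylase gene of ethanol fermentation, AT5G26200, AT5G42200 and AT5G44730. In seeds 20 of the 24 were higher in prt6-1 (2.19% of all probe sets) and 0 lower (1.91% of all), and between the mutants under hypoxia 0 were called by limma. Of the 4 not past the thresholds, 1, AT5G26200, was among those higher in seeds. The rest of those higher were members or probe sets set aside by the rule, already counted above. Of 21 fermentation and sugar breakdown genes 3 were measured, and none of the 3 was called in seeds. PDC2 and AT4G17260, a lactate dehydrogenase gene, are left out of the members by name. AT4G17260 passed all 3 thresholds, at 1.16 in Col-0 under hypoxia, 0.76 in ate1 ate2 in air and 0.67 in prt6-1 in air. PDC2 was higher by 1.80 in Col-0 under hypoxia (SE 0.13, adjusted p = 6.74e-07), at 0.53 in ate1 ate2 minus Col-0 in air and at 0.27 in prt6-1 minus Col-0 in air. Of 11 N-end rule pathway genes 2 were measured, and neither was called in any of the 5 comparisons tested. The trehalose and carbon starvation list (22 genes) and the jasmonate list (18 genes) had 0 genes measured under a name.

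Neighbouring genes on the chromosome were looked up by gene order in the TAIR10.1 annotation. Of the 22 named members, AT1G19540 was the 1 with a measured next protein-coding gene past the 3 thresholds. Only neighbours measured under their own name could be checked, so unnamed neighbours past the thresholds would be missed. Its neighbour AT1G19530, one of those set aside by the rule, was higher by 3.43 in Col-0 under hypoxia, by 4.36 in ate1 ate2 in air and by 4.68 in prt6-1 in air, against 1.25, 1.49 and 1.64 for AT1G19540.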

How the data were processed

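RNA from whole seeds (6 arrays) and whole seedlings (12 arrays) was made into biotin-labelled cRNA and hybridised to ATH1 arrays, per the labels' protocols. The deposited table holds log2 values, 1 per probe set and array, made by the authors with RMA and the affy package, both named in the labels without a role per the submitters' processing notes. Versions, and whether seeds and seedlings were normalized together, are not given in the sources used here. RMA makes arrays alike in distribution, so a shift common to most of the transcriptome cannot be seen. Signal over background is unknown, and the few arrays limit precision.

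The table has 22810 probe sets, of which 64 are AFFX controls and were not tested. Platform annotation, updated through the TAIR10.1 gene table, gave 1 gene for 13513, several for 503 and none for 8730. At most 0.0264% of values were identical between any 2 arrays, so no array was taken for a copy of another. The members and the gene lists were chosen with earlier results of these data known.

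Tests used limma 3.58.1 in R 4.3.3 (lmFit, eBayes, two-sided, Benjamini-Hochberg over 22746 probe sets, called at an adjusted p under 0.05). Seeds and the 6 seedling groups were fitted apart, seedlings with a cell-means model, and every adjusted p comes from these fits. The fit was tested on simulated data. Tables and figures used Python 3.11.15, pandas 2.3.3, numpy 2.4.6 and matplotlib 3.10.9. Named were all single-gene members called in a test, the 12 with the largest Col-0 hypoxia difference, the 6 with the largest mutant differences, those next to a threshold, those with a symbol and the extremes of the mutant responses. The others, and single probe sets without a gene, were chosen after their values were seen. Alternatives were array weights, a replicate block, an intensity trend, quantile normalization, a robust prior, a joint fit of 18 arrays, median centring, removal of the dimmest 33.3% of probe sets, a fit of the compared arrays alone, and leaving out each array in turn.

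Replicate numbers were not used as a block. Deviations of same-numbered arrays from their group means correlated at -0.077 to -0.024 in seeds and at -0.0038 between the mutants under hypoxia. Between the other seedling groups, with 2 numbers each, they correlated at -0.234 to 0.262, not all above 0.1, so the numbers were not taken to pair the samples.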

Additional observations from a re-analysis of the deposited data

Results flagged for a closer look

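For 4 members the prt6-1 arrays lay on opposite sides of Col-0 in seeds and in seedlings in air, without overlap in either tissue. In seeds all prt6-1 arrays lay below all Col-0 arrays in these 4 of 71 members (5.63%), against 13.5% of all probe sets, and the seedling side was fixed by the choice of members. None of the 4 has a gene name, and the difference between the tissues was not tested in any of them. In seeds 253046_at was lower in prt6-1 by -2.14 log2 units, where it measured 4.86, 4.52 and 4.92, against 6.65, 6.70 and 7.36 in Col-0. In seedlings in air the same probe set was at 0.64. Probe set 258856_at was at -0.70 in seeds and 1.26 in seedlings in air. Both of these passed the seed test. The other pair did not pass it: 245329_at was at -0.56 in seeds (adjusted p = 0.124 by limma) and 0.92 in seedlings, and 252131_at was at -0.47 (adjusted p = 0.0947 by limma) and 0.77.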

How the results depend on the processing

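The number of members was 70 after quantile normalization or median centring and 69 without the dimmest probe sets. Leaving out 1 array gave 66 to 93, the highest without Col-0 air replicate 2, where 69 of the 71 were kept, and the fewest, 62, were kept without Col-0 air replicate 1 (73 chosen). The members above air in both hypoxia arrays numbered 58 to 66 in ate1 ate2 and 64 to 68 in prt6-1 over all alternatives. In seeds the 36 calls became 45 in a joint fit of 18 arrays, 39 with an intensity trend or array weights and 26 to 39 with 1 array left out. The 2 lower members became 4 with array weights, 5 in a joint fit of 18 arrays and 1 to 4 with 1 array left out, 4 being without Col-0 replicate 1. Over all probe sets the 934 seed calls became 1534 with an intensity trend, 1519 with array weights, 3006 in a joint fit of 18 arrays and 300 to 1554 with 1 array left out (1554 without Col-0 replicate 1, at most 452 otherwise). Between the mutants under hypoxia, the 0 members became 2, both lower in ate1 ate2, with an intensity trend or array weights, and stayed 0 under the other alternatives. The 37 calls over all probe sets became 87 with an intensity trend, 120 with array weights, 13 in a joint fit of 18 arrays, 67 with only the compared arrays and 8 to 15 with 1 array left out. The cause of these shifts was not tested. With a replicate block, which the labels' numbers do not back as a pairing, 33 members were called in seeds (31 higher, 2 lower) and 535 probe sets in all, and between the mutants 0 members and 76 probe sets. AT4G40070, at 0.01 in seeds, turned to -0.074 with array weights and ranged from -0.148 to 0.173 with 1 array left out, below 0 without Col-0 replicate 1 (-0.089), Col-0 replicate 2 (-0.047) or prt6-1 replicate 2 (-0.148), in no case past the threshold. Seed calls were gained by AT5G54130 after quantile normalization (adjusted p = 0.036), without the dimmest probe sets (adjusted p = 0.0392) and in the joint fit (adjusted p = 0.00262), by AT1G07870 with array weights (adjusted p = 0.0359) and in the joint fit (adjusted p = 0.00842), and by AT5G10210 in the joint fit (adjusted p = 0.0105). AT3G28480 also lost its seed call after quantile normalization (0.44, adjusted p = 0.0545) and with the block (0.46, adjusted p = 0.101).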

Other observations

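Gene lists with no named members gave a few further calls by limma. EIN3, a transcription factor of ethylene signalling and 1 of 3 measured of 23 ethylene genes, was higher in prt6-1 than in Col-0 seeds by 0.67 (SE 0.10, adjusted p = 0.0119), and 0 of the 3 were called in Col-0 under hypoxia. STZ, which encodes a stress-related zinc-finger protein and is the 1 measured of 22 reactive oxygen genes, was lower in prt6-1 seeds (-1.08, SE 0.12, adjusted p = 0.00206), at 5.86 ± 0.13 in prt6-1 and 6.93 ± 0.12 in Col-0 (SD, n = 3 each). In Col-0 seedlings it was higher under hypoxia by 0.82 (SE 0.17, adjusted p = 0.0205). Of 21 heat shock and chaperone genes 6 were measured, with a median of -0.69 in seeds and 0 called. The genes with the most negative differences had widely spread Col-0 seed arrays. Their SDs were 1.48 for AT1G53540, 1.38 for AT2G29500, 1.12 for AT1G54050 and 0.89 for AT1G52560. AT5G26200, a core hypoxia gene outside the 3 thresholds, was higher in prt6-1 seeds by 4.22.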
